A study of Mus musculus with 16 samples.

Results

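The interferon-inducible GTPases examined here are 8 genes, Gbp2, Gbp3, Gbp5, Gbp8, Igtp, Irgm1, Irgm2 and Iigp1, taken by gene symbol from the 20325 genes measured. All 8 passed the filter on low values, set at a library mean of 10, as did 12670 genes in all. RNA was sequenced in 16 libraries of C3H10T1/2, an established mouse mesenchymal cell line that can form fat, bone and cartilage cells in culture. Lentivirus brought a histone H3 transgene into the cells over 2 days, and puromycin (1.5 µg/ml, 4 days) then selected the cells carrying it, so that every group also carried the virus, the selection and the cells' own H3 genes.

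The 8 groups had 2 libraries each and differed in the transgene. On the replication-independent histone H3.3 these were G34W, G34R, K27R, G34W together with K27R (G34W K27R) and G34W together with K36R (G34W K36R). On the replication-coupled histone H3.1 they were G34W and wild type, and the last group had wild-type H3.3. G34W and G34R replace the glycine beside lysine 36 with tryptophan or arginine, and K27R and K36R replace a lysine that can carry methyl groups with arginine. The study set out to find how H3.3 G34 mutations change transcription in these cells. The labels used here give no clone and no promoter for the transgenes. They do not say that the 2 libraries of a group are separate cultures, and the spread behind each p-value may be technical.

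The guanylate-binding proteins (GBPs) and the immunity-related GTPases (IRGs) are families of GTP-hydrolysing proteins that mouse cells make after interferon, above all interferon gamma. They gather on the vacuoles of intracellular parasites and on bacteria in the cytosol and help to break them open. Among the IRGs, Irgm1, Irgm2 and Igtp (also called Irgm3) sit on the cell's own membranes and hold the effector IRGs inactive there, and Iigp1 (Irga6) is such an effector, which coats the parasite's vacuole. The genes are switched on through promoter elements called GAS and ISRE, the second of which IRF proteins bind.

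The promoter sequences are shown because all 8 members rose in G34W K27R cells. A further reason is that 6 of the 7 windows found for them hold an ISRE core. RefSeq windows on GRCm38.p6, from 250 bases before to 50 after the start site, were found for 6 of the 8 members, with 2 start sites for Gbp3. The letters searched, on both strands, were GAAA, any 2 bases and GAAA for the ISRE core, and TTC, any 3 bases and GAA for GAS. Matches are in capitals, and an ISRE core on the opposite strand reads as TTTC, 2 bases and TTTC. Of 32851 such windows of all genes, 3.443% hold the ISRE core, 8.298% hold GAS and 0.454% hold both, and each GAS here lies apart from the ISRE core. Each line gives the 170 bases before the start site, read along the gene.
Gbp2 at chr3:142620493-142620662, plus strand: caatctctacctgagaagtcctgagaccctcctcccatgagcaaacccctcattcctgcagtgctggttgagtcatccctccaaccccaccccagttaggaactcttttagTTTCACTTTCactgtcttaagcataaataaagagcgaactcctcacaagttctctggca
Gbp3 at chr3:142559874-142560043, plus strand: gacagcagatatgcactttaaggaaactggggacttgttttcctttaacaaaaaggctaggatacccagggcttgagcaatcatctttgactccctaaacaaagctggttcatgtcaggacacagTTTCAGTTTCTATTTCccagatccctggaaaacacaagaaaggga
Gbp5 at chr3:142496764-142496933, plus strand: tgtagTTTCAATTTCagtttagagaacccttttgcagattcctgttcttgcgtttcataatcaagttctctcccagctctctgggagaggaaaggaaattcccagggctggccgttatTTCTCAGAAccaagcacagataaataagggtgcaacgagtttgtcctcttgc
Igtp at chr11:58199386-58199555, plus strand: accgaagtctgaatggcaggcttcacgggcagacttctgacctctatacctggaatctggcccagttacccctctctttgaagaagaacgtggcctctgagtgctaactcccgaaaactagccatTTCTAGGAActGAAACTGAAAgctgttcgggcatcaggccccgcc
Irgm1 at chr11:48871421-48871590, minus strand: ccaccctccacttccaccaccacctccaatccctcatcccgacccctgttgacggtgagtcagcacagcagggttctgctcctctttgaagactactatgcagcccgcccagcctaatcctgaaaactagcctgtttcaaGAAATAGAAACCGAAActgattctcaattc
Irgm2 at chr11:58214807-58214976, plus strand: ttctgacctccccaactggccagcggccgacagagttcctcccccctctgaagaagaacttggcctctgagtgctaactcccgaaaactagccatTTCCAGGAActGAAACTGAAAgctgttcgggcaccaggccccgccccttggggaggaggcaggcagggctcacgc

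In Igtp and Irgm2 a GAS match and an ISRE core stand 2 bases apart, with the GAS match starting at -45 and -75 from the start site. The longest run of identical bases in the windows of these 2 genes is 61 bases. It starts at -11 in Igtp and at -41 in Irgm2, so it holds neither motif. The end of the Igtp window cuts it off. In Gbp3 and in Irgm1 a pair of ISRE cores overlap. Gbp2 holds the ISRE core at -59 and no GAS letters, and the second window of Gbp3 holds neither motif. These are matches of letters in short windows and were not tested as binding sites.

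Values are given in the deposited unit, expected read counts scaled by 1 constant per library, and the value of 3 reads was 2.27 to 3.74 in that unit. Estimated depth was 26.02 to 49.1 M reads per library, with the G34W K36R and both H3.1 groups at 34.8 to 49.1 M and the other 5 groups at 26.02 to 33.8 M. In 5 groups (H3.3 G34R, K27R, G34W K27R, G34W K36R and wild type) the 2 libraries differed by 0.958 to 1.44 times the counting variance over genes with whole reads, against 38.7 to 56.7 times in H3.3 G34W and in both H3.1 groups. The H3.3 wild-type libraries differed by less than the sampling noise over those genes (chi-square p = 0.929 over 2405 genes) and were counted as 1 sample. With genes of fractional reads included, they differed by 1.23 times the counting variance (chi-square p = 9.86e-64 over 11931 genes). On that wider set the 5 close pairs reached up to 6.01 times, in G34R, against 224 to 273 times in H3.3 G34W and both H3.1 groups. Markers of mesenchymal cells summed to 548371 to 925436 per library. Of 8 macrophage markers, Ptprc, Emr1 and Tyrobp were at 0 in both G34W K27R libraries, and Emr1 and Tyrobp in both H3.3 wild-type libraries. The 8 genes summed to 78.8 and 89.5 in the G34W K27R libraries against 125 in each H3.3 wild-type library. Only 3 of them were tested. Against H3.3 wild type 1 was called lower in G34W K27R cells, and 2 had positive log2 fold changes and were not called. T and NK cell markers summed to at most 12.3 in any library and B cell markers to at most 9.33, with Cd3e at 0 in every group. Fewer cells making a transcript and less of it per cell cannot be told apart in bulk RNA.

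The 8 genes were highest in H3.3 G34W K27R cells in every case, next in H3.3 G34R and H3.3 K27R cells, and lower in the other 5 groups by group mean. For Irgm1 the H3.1 wild-type libraries overlapped those of G34R. Each differed over the 8 groups in limma's F test, with adjusted p between 4.84e-07 for Gbp3 and Irgm1 and 6.15e-05 for Gbp8; 66.6% of all genes tested did so too. The G34W K27R mean was 3.94 times the second highest group mean for Irgm1 and 6.13 to 10.2 times for the other 7 genes. Across the 8 group means the members' profiles correlated with a median Pearson r of 0.929 over 28 pairs, from 0.546 between Iigp1 and Irgm1 to 0.994 between Irgm2 and Igtp. These points share libraries and the r values are a description.

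**Figure D1:**
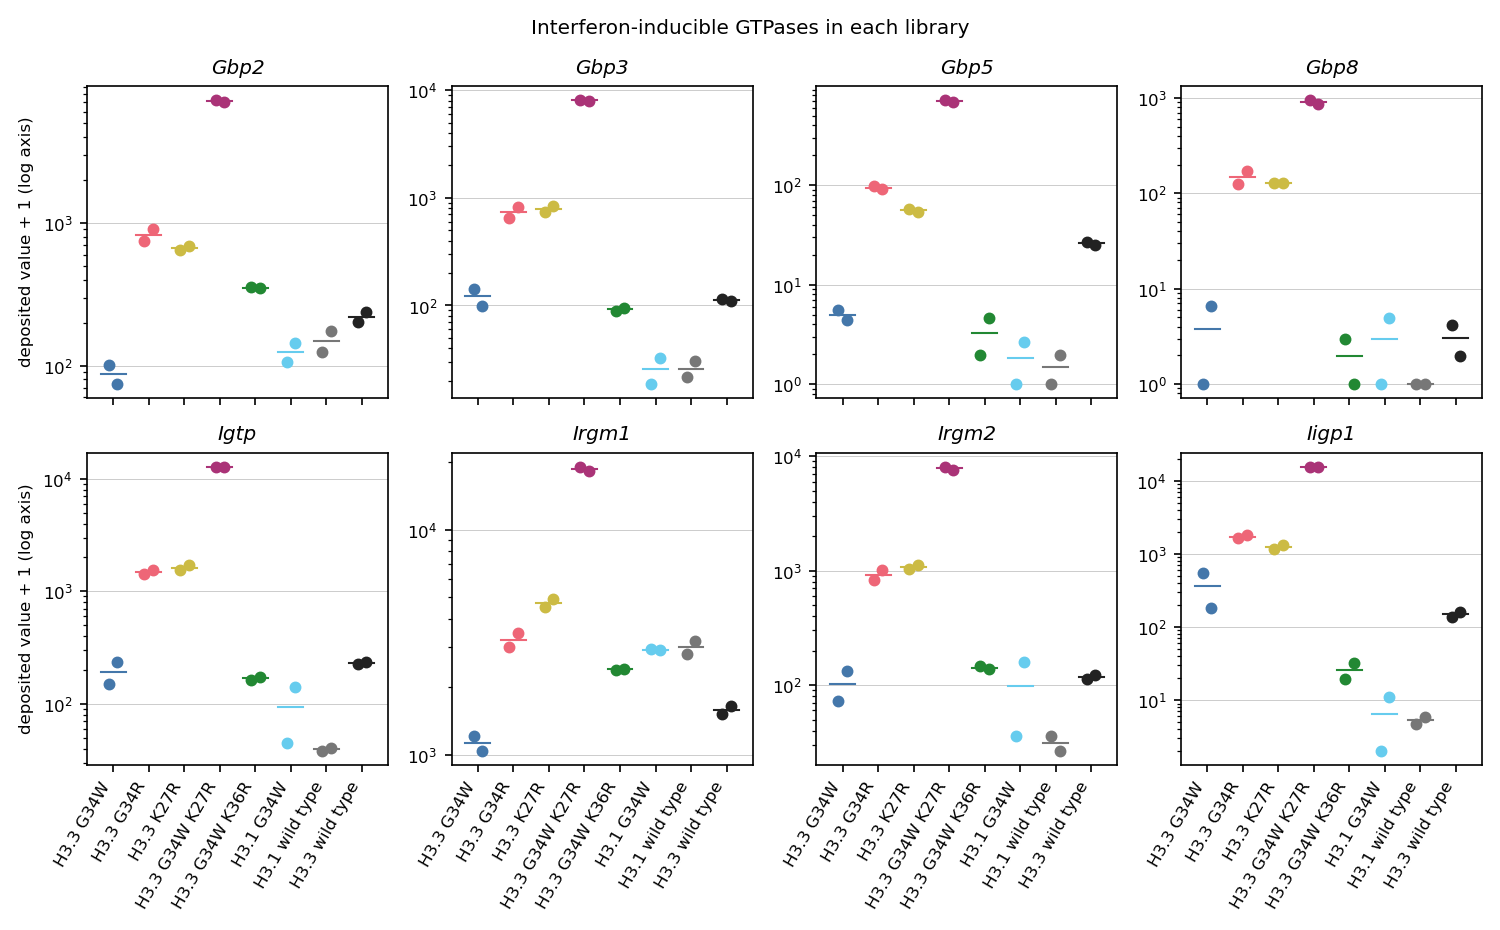
Deposited value plus 1 on a log axis for each of the 8 GTPase genes, with 1 point per library, 2 libraries per group and a line at the group mean; panels have their own ranges. The H3.3 G34W K27R points are the highest in all 8 panels, and Irgm1 is the gene whose H3.1 points lie above its H3.3 wild-type points.

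In H3.3 G34W K27R cells all 8 genes rose against H3.3 wild type. In this comparison 14.3% of all genes were called (limma, Benjamini-Hochberg adjusted p under 0.05) and 6.42% were called higher. The median log2 fold change of the 8 was 5.91, against -0.0082 over all genes tested.

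Among the regulatory IRGs, Irgm1, which mouse macrophages need to control mycobacteria, had 18998 and 18232 in G34W K27R cells, against 1513 and 1643 in H3.3 wild-type cells. Its log2 fold change was 3.56 ± 0.15 (SE; limma adjusted p = 2.2e-06), the smallest of the 8. Igtp had 12767 and 12621 in G34W K27R cells, against 226 and 235 in H3.3 wild-type cells. That is a log2 fold change of 5.78 ± 0.52 (SE; limma adjusted p = 0.000102), and the 2 groups were far apart with the libraries of each close together. Irgm2, found on the Golgi, had 8069.7 and 7619 in G34W K27R cells, against 113 and 122 in H3.3 wild-type cells, a log2 fold change of 6.05 ± 0.67 (SE; limma adjusted p = 0.000283). Igtp, Irgm1 and Irgm2 had fractional expected counts in all 16 libraries, so the estimation shared reads between genes and the split among close copies is uncertain. The other 5 genes had whole counts in 7 to 9 of the 16 libraries, so this holds for them in part. Gbp8 had whole counts only where it had 2 reads or fewer, and fractional counts in all G34R and K27R libraries. Gbp2, Gbp3, Gbp8 and Iigp1 had fractional counts in both G34W K27R libraries.

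The effector Iigp1 had 15621 and 15359 in G34W K27R cells, against 136 and 161 in H3.3 wild-type cells. Its log2 fold change was 6.69 ± 0.85 (SE; limma adjusted p = 0.000582), so regulatory and effector IRGs were both high in the same libraries.

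Among the GBPs, Gbp2, which moves onto parasite vacuoles and bacteria, had 7243 and 7073 in G34W K27R cells, against 201 and 236 in H3.3 wild-type cells. Its log2 fold change was 5.03 ± 0.28 (SE; limma adjusted p = 5.48e-06). Gbp3 had 8057 and 7986 in G34W K27R cells, against 113 and 109 in H3.3 wild-type cells, a log2 fold change of 6.16 ± 0.36 (SE; limma adjusted p = 7.56e-06). Gbp5, linked to inflammasome activation in mouse macrophages, had 714 and 679 in G34W K27R cells, against 25.8 and 24.2 in H3.3 wild-type cells. Its log2 fold change was 4.74 ± 0.69 (SE; limma adjusted p = 0.00129). Gbp8 had 943 and 864 in G34W K27R cells, against 3.16 and 0.969 in H3.3 wild-type cells, where it had 4 reads in all (sums of expected reads, here and below, rounded to whole reads). The ratio of its reads at equal depth was 465, with a 95% counting interval of 181 to 1709 (limma adjusted p = 0.000959). In all 8 genes the G34W K27R and H3.3 wild-type libraries did not overlap.

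Because 5 of the library pairs were so close, the same fit was made with each of them averaged to 1 sample, which leaves 3 residual degrees of freedom. There 5 of the 8 genes were called in G34W K27R against H3.3 wild type, where 1.11% of all genes were; Gbp5 (limma adjusted p = 0.12), Gbp8 (0.0672) and Iigp1 (0.0572) were not.

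**Figure D2:**
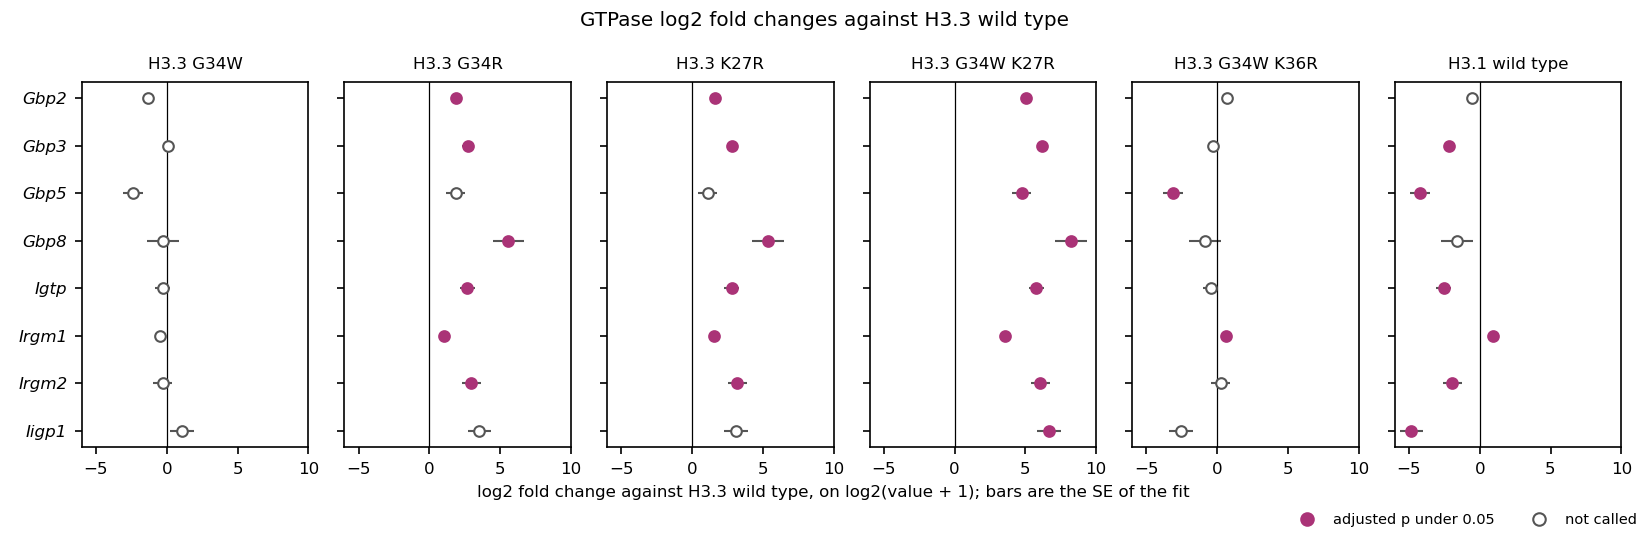
Log2 fold change against H3.3 wild type of each GTPase gene in 6 groups, 1 panel per group, on the log2(value + 1) scale with the SE of the limma fit as bars; filled points have an adjusted p under 0.05. All 8 genes are filled in the G34W K27R panel, 6 in the G34R and K27R panels and none in the G34W panel.

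H3.3 G34R and H3.3 K27R, each a single substitution, went with a smaller rise of the same genes. Against H3.3 wild type 6 of the 8 genes rose in G34R cells, where 2.72% of all genes were called and 1.75% were called higher. In K27R cells 6 rose as well, where 2.75% of all genes were called and 1.85% were called higher. The median log2 fold change of the 8 was 2.69 in G34R and 2.81 in K27R cells, against -0.0087 and -0.012 over all genes in the same comparisons. The 2 comparisons share the H3.3 wild-type sample. The genes not called were Gbp5 and Iigp1 in both.

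Irgm1 had 3003 and 3453 in G34R cells and 4548 and 4905 in K27R cells, against 1513 and 1643 in H3.3 wild-type cells. Its log2 fold changes were 1.03 ± 0.15 (SE; limma adjusted p = 0.00708) in G34R and 1.58 ± 0.15 (SE; limma adjusted p = 0.000662) in K27R cells. Igtp had 1412 and 1549.9 in G34R cells and 1549.5 and 1698 in K27R cells, against 226 and 235 in H3.3 wild-type cells. It rose by 2.68 ± 0.52 (SE; limma adjusted p = 0.0254) and by 2.81 ± 0.52 (SE; limma adjusted p = 0.0179) on the log2 scale, in G34R and in K27R cells in turn. Irgm2 had 820.3 and 1009 in G34R cells and 1039 and 1112 in K27R cells, against 113 and 122 in H3.3 wild-type cells, with limma adjusted p of 0.0485 in G34R and 0.0331 in K27R cells.

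Gbp2 had 745 and 905 in G34R cells and 642 and 691 in K27R cells, against 201 and 236 in H3.3 wild-type cells. Its log2 fold changes were 1.90 ± 0.28 (SE; limma adjusted p = 0.00667) in G34R and 1.60 ± 0.28 (SE; limma adjusted p = 0.0137) in K27R cells. Gbp3 had 646 and 814 in G34R cells and 744 and 835 in K27R cells, against 113 and 109 in H3.3 wild-type cells, with log2 fold changes of 2.70 ± 0.36 and 2.81 ± 0.36 (SE; limma adjusted p = 0.00433 and 0.00326). For both genes all G34R and K27R libraries lay above the H3.3 wild-type libraries. Gbp8 had 125 and 169.6 in G34R cells and 128 in each K27R library, against 4 reads in all in H3.3 wild-type cells. The ratios of its reads were 75.6 (95% counting interval 29.2 to 279.6) in G34R and 66.1 (25.4 to 244.6) in K27R cells.

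Of the 2 genes not called, Gbp5 had 97.0 and 89.8 in G34R cells and 56.3 and 53.2 in K27R cells, against 25.8 and 24.2 in H3.3 wild-type cells. Its limma adjusted p was 0.217 in G34R and 0.566 in K27R cells. Iigp1 had 1663 and 1807 in G34R cells and 1188 and 1337 in K27R cells, against 136 and 161 in H3.3 wild-type cells, with limma adjusted p of 0.0583 in G34R and 0.102 in K27R cells. For both genes the libraries of the groups did not overlap. The limma fit uses 1 spread per gene for all 8 groups. The Iigp1 libraries differed most, on the log2 scale, in H3.3 G34W (547 and 180.4) and in H3.1 G34W (1.04 and 10.0). The H3.1 G34W values are 1 and 13 reads. Between K27R and G34R cells, next to each other in the order for every gene, Irgm1 was the 1 gene of the 8 called, higher in K27R by 0.55 ± 0.13 on the log2 scale (SE; limma adjusted p = 0.0216), where 9.74% of all genes were called.

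The G34R and K27R counts depended on single libraries and on how close pairs were counted. Without G34R replicate 2 the G34R count was 1 of 8, and without G34R replicate 1, either K27R library or either G34W K27R library it was 3. Without either K27R library the K27R count was 2. With the 5 close pairs averaged, both counts were 0, and 0% of all genes were called in either comparison.

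In H3.3 G34W cells 0 of the 8 genes were called by limma against H3.3 wild type, where 1.18% of all genes were. At an unadjusted p under 0.05 there were 3 of the 8, against 13.2% of all genes. The median log2 fold change was -0.29, against 0.0018 over all genes. Gbp2 had 99.5 and 73.3 in G34W cells, against 201 and 236 in H3.3 wild-type cells, a log2 fold change of -1.35 ± 0.28 (SE; limma adjusted p = 0.0506). Gbp5 had 4.60 and 3.40 in G34W cells, against 25.8 and 24.2 in H3.3 wild-type cells, and the ratio of reads was 0.16 with a 95% counting interval of 0.0658 to 0.34 (limma adjusted p = 0.146). Irgm1 had 1216 and 1041 in G34W cells, against 1513 and 1643 in H3.3 wild-type cells (limma adjusted p = 0.184). In these 3 genes both G34W libraries lay below both H3.3 wild-type libraries.

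In the other 5 genes the libraries of both groups overlapped, except in Iigp1. Igtp had 149 and 235 in G34W cells, against 226 and 235 in H3.3 wild-type cells. Irgm2 had 71.1 and 131 in G34W cells, against 113 and 122 in H3.3 wild-type cells. Iigp1 had 547 and 180.4 in G34W cells, against 136 and 161 in H3.3 wild-type cells (limma adjusted p = 0.652). Both G34W libraries lay above both H3.3 wild-type libraries, and 1 of them stood well above the rest. Gbp3 had 142 and 98.5 in G34W cells, against 113 and 109 in H3.3 wild-type cells, and Gbp8 had 5 reads in G34W and 4 in H3.3 wild-type cells. When both H3.3 wild-type libraries entered the fit as samples, 3 of the 8 genes and 7.55% of all genes were called. When any 1 of the H3.3 G34W, H3.1 G34W or H3.1 wild-type libraries, or H3.3 wild-type replicate 1, was left out, 1 of the 8 was called. The share of all genes called in those fits was 1.28% to 12%, highest without H3.3 G34W replicate 2, so that 1 of 8 lay near the share of all genes there.

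Set directly against G34W, the 2 amino acids at the same position gave different levels. Against H3.3 G34W, 7 of the 8 genes rose in H3.3 G34R cells, where 0.845% of all genes were called and 0.726% were called higher. Log2 fold changes of the 7 ran from 1.52 ± 0.13 for Irgm1 (SE; limma adjusted p = 0.00136) to 5.84 ± 0.92 for Gbp8 (SE; limma adjusted p = 0.0154). Gbp2 was 9.55 times as high in G34R as in G34W cells (limma adjusted p = 0.000575). Gbp5 had 164 reads in G34R against 8 in G34W cells, a ratio of 23.1 with a 95% counting interval of 11.5 to 54.5. For Iigp1, with the spread between G34W libraries given above, the log2 fold change was 2.46 ± 0.69 (SE; limma adjusted p = 0.258). Without G34R replicate 1 the count was 3 and without G34R replicate 2 it was 2; with the 5 close pairs averaged it was 0, as it was over all genes.

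Adding K27R to G34W raised all 8 genes. Against H3.3 G34W, log2 fold changes in G34W K27R cells were 4.05 ± 0.13 for Irgm1 (SE; limma adjusted p = 7.76e-08) to 8.46 ± 0.92 for Gbp8 (SE; limma adjusted p = 0.000122), with 21.6% of all genes called and 9.24% called higher. The count stayed at 8 without any 1 of the 16 libraries and with the 5 close pairs averaged, where 2.74% of all genes were called. Against H3.3 K27R, all 8 genes rose as well, with 26.2% of all genes called and 11.7% called higher, by 1.98 ± 0.13 for Irgm1 (SE; limma adjusted p = 1.7e-05) to 3.64 ± 0.56 for Gbp5 (SE; limma adjusted p = 0.0013) on the log2 scale. Gbp8 was nearest to the threshold, at 7.04 times the reads of K27R cells (95% counting interval 6.12 to 8.13; limma adjusted p = 0.0469). With the 5 close pairs averaged this count was 0, as it was over all genes. Against H3.3 G34R 7 of the 8 rose, where 24.5% of all genes were called, and Gbp8 was not called (limma adjusted p = 0.0632).

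The G34W effect had a different size with K27R than without it. For 5 genes, Gbp2, Gbp3, Gbp5, Igtp and Irgm1, the interaction was called, and all 5 were higher with K27R; 7.95% of all genes were called and 2.72% in that direction. The interaction is the log2 fold change of G34W K27R against K27R minus that of G34W against wild type. It was 6.04 ± 0.89 for Gbp5 (SE; limma adjusted p = 0.00304) and 4.77 ± 0.36 for Gbp2 (SE; limma adjusted p = 0.000151), the 2 genes with the lowest log2 fold changes in G34W cells. It was 3.27 ± 0.67 for Igtp (SE; limma adjusted p = 0.0146) and 3.25 ± 0.47 for Gbp3 (SE; limma adjusted p = 0.00284). It was 2.47 ± 0.20 for Irgm1 (SE; limma adjusted p = 0.000175). Irgm2 (limma adjusted p = 0.0533), Iigp1 (0.202) and Gbp8 (0.252) were not called. With the 5 close pairs averaged 0 of the 8 were called, and 0.0237% of all genes were.

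**Figure D3:**
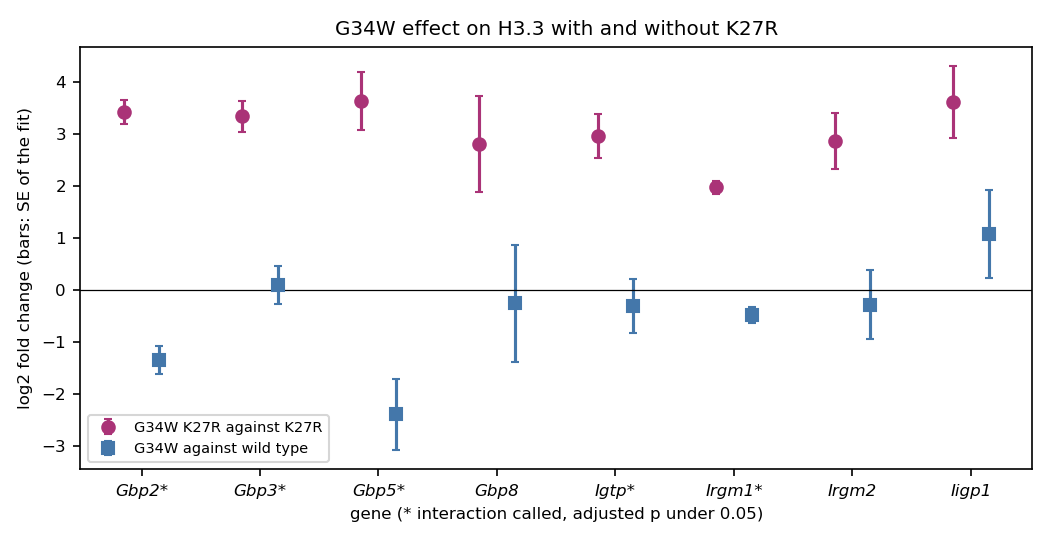
Log2 fold change of each GTPase gene for G34W K27R against K27R (circles) and for G34W against wild type (squares), both on H3.3, with the SE of the limma fit as bars. The circles lie at 1.98 to 3.64, and the squares at -2.39 to 1.07; a star marks the 5 genes whose difference was called.

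In G34W K36R cells few of the 8 genes were called, at shares not far from those of all genes. Against H3.3 wild type, Irgm1 rose and Gbp5 fell in G34W K36R cells, where 17.1% of all genes were called (8.3% upward and 8.82% downward). Irgm1 had 2379 and 2404 in G34W K36R cells, against 1513 and 1643 in H3.3 wild-type cells, a log2 fold change of 0.60 ± 0.15 (SE; limma adjusted p = 0.0247). Gbp5 had 0.978 and 3.57 in G34W K36R cells, 5 reads in all, against 25.8 and 24.2 in H3.3 wild-type cells, and the ratio of reads was 0.0921 with a 95% counting interval of 0.0287 to 0.229 (limma adjusted p = 0.0135). The count was 0 without G34W K36R replicate 1, 1 without replicate 2 and 0 with the 5 close pairs averaged. Against H3.3 G34W, where 30.6% of all genes were called, Gbp2 rose to 353 and 348 in G34W K36R cells, against 99.5 and 73.3 in G34W cells (limma adjusted p = 0.000219). Irgm1 rose by 1.09 ± 0.13 on the log2 scale (SE; limma adjusted p = 0.000247). Iigp1 fell to 18.6 and 31.7 in G34W K36R cells, against 547 and 180.4 in G34W cells (limma adjusted p = 0.00374), and with the 5 close pairs averaged 0 of the 3 were called.

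On H3.1 most of the genes were low. In H3.1 wild-type cells 5 genes fell and Irgm1 rose against H3.3 wild type, in a comparison where 33.4% of all genes were called (16.3% upward and 17% downward). The 5 were Gbp3, Gbp5, Igtp, Irgm2 and Iigp1, and the median log2 fold change of the 8 was -2.04, against -0.016 over all genes. Iigp1 had 3.79 and 4.89 in H3.1 wild-type cells, against 136 and 161 in H3.3 wild-type cells (log2 fold change -4.82 ± 0.85, SE; limma adjusted p = 0.00231). The H3.1 wild-type values of Iigp1 are 5 reads in each library. Igtp had 37.4 and 39.8 in H3.1 wild-type cells, against 226 and 235 in H3.3 wild-type cells (limma adjusted p = 0.00477). Gbp3 had 20.5 and 29.3 in H3.1 wild-type cells, against 113 and 109 in H3.3 wild-type cells (limma adjusted p = 0.00198), and Irgm2 had 34.7 and 25.7 there, against 113 and 122 (limma adjusted p = 0.0471). Gbp5 had 1 read in H3.1 wild-type cells, against 52 in H3.3 wild-type cells, a ratio at equal depth of 0.017 with a 95% counting interval of 0.000421 to 0.0987.

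Irgm1 went the other way, with 2812 and 3190.1 in H3.1 wild-type cells, against 1513 and 1643 in H3.3 wild-type cells, a log2 fold change of 0.92 ± 0.15 (SE; limma adjusted p = 0.0017). Gbp2 had 124 and 173 in H3.1 wild-type cells, against 201 and 236 in H3.3 wild-type cells, and was not called (limma adjusted p = 0.136). Gbp8 had 0 reads in H3.1 wild-type cells and 4 in H3.3 wild-type cells, which gives no difference detectable at this depth. With the 5 close pairs averaged 1 of the 8 genes, Iigp1 (limma adjusted p = 0.0468), was called, where 4.9% of all genes were.

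G34W on H3.1, set against H3.1 wild type, gave 0 of 8 genes called by limma and 0% of all genes; 2 of the 8, Igtp and Irgm2, and 15.9% of all genes had an unadjusted p under 0.05. The 2 H3.1 G34W libraries differed in these genes. Replicate 2 was the higher for 7 of the 8, by a median of 1.54 on the log2 scale. Igtp had 43.6 and 142 in H3.1 G34W cells, against 37.4 and 39.8 in H3.1 wild-type cells. Irgm2 had 35.1 and 159 in H3.1 G34W cells, against 34.7 and 25.7 in H3.1 wild-type cells. Irgm1 showed no such gap, with 2939 and 2913 in H3.1 G34W cells. Without H3.1 G34W replicate 1, 2 of the 8 genes were called, near the 19.5% of all genes called in that fit. For the difference between the G34W effect on H3.1 and on H3.3, 0 of the 8 and 0.197% of all genes were called with all libraries, and 3 of the 8 and 10.6% of all genes had an unadjusted p under 0.05. Without H3.1 G34W replicate 1, 3 of the 8 and 6.72% of all genes were called for that difference.

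Most other tested members of both families also rose in G34W K27R cells. The lists of related genes below were written for this work from their names and known roles. Earlier results of these data were known when they were written, so the counts below are a description. Of all genes tested against H3.3 wild type, 6.42% were called higher in G34W K27R, 1.75% in G34R and 1.85% in K27R cells. In G34W K36R cells 8.3% were called higher and 8.82% lower, and in H3.1 wild-type cells 17% were called lower. Of 12 other GBP genes listed, 7 were in the table and tested, and in G34W K27R cells all 7 rose against H3.3 wild type. Gbp4 had 5348 and 4955 in G34W K27R cells, against 27.8 and 31.5 in H3.3 wild-type cells (log2 fold change 7.39 ± 0.72, SE; limma adjusted p = 0.000152). The other 6, Gbp1, Gbp6, Gbp9, Gbp10, Gbp11 and Mpa2l, had log2 fold changes of 5.05 for Gbp6 to 7.29 for Gbp11. In G34R cells 3 of these 7 rose (Gbp1, Gbp4 and Gbp11), in K27R cells 2 did (Gbp1 and Gbp4), and in H3.1 wild-type cells 6 fell.

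Of 16 other IRG genes listed, 13 were in the table and 11 were tested, and 8 rose in G34W K27R cells against H3.3 wild type. Gm12250 had 3012 and 2902 in G34W K27R cells, against 1.94 and 6.78 in H3.3 wild-type cells. Ifi47 had 5940.4 and 5712 in G34W K27R cells, against 330.1 and 296 in H3.3 wild-type cells (log2 fold change 4.21 ± 0.38, SE; limma adjusted p = 0.000108). Tgtp1 and Tgtp2, near-identical copies, rose by 6.07 and 5.84 on the log2 scale, but their reads were shared: in H3.3 wild-type cells Tgtp1 had 412 and 70.5 while Tgtp2 had 117 and 442. F830016B08Rik, Gm4951, Gm5431 and Gm12185 rose by 4.63, 4.52, 3.84 and 2.88 on the log2 scale. Irgq, with 1229.9 and 1340.2 in G34W K27R cells, against 909 and 968 in H3.3 wild-type cells, 9930111J21Rik1 and 9930111J21Rik2 were not called. In G34R cells Gm12250 and F830016B08Rik rose, and in K27R cells Gm12250 did. In G34W K36R cells Gm4951 fell by 3.76 on the log2 scale and F830016B08Rik rose by 0.94.

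The giant GTPase Gvin1 had 20476 and 19717 in G34W K27R cells, against 852 and 808 in H3.3 wild-type cells. It and the dynamin-like antiviral GTPases Mx1 and Mx2 all rose there, by 4.60, 8.23 and 6.12 on the log2 scale. Gvin1 and Mx1 also rose in G34R cells and in K27R cells. Like Irgm1, Gvin1 rose in G34W K36R cells too (log2 fold change 2.35 ± 0.40, SE; limma adjusted p = 0.00437).

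**Figure D4:**
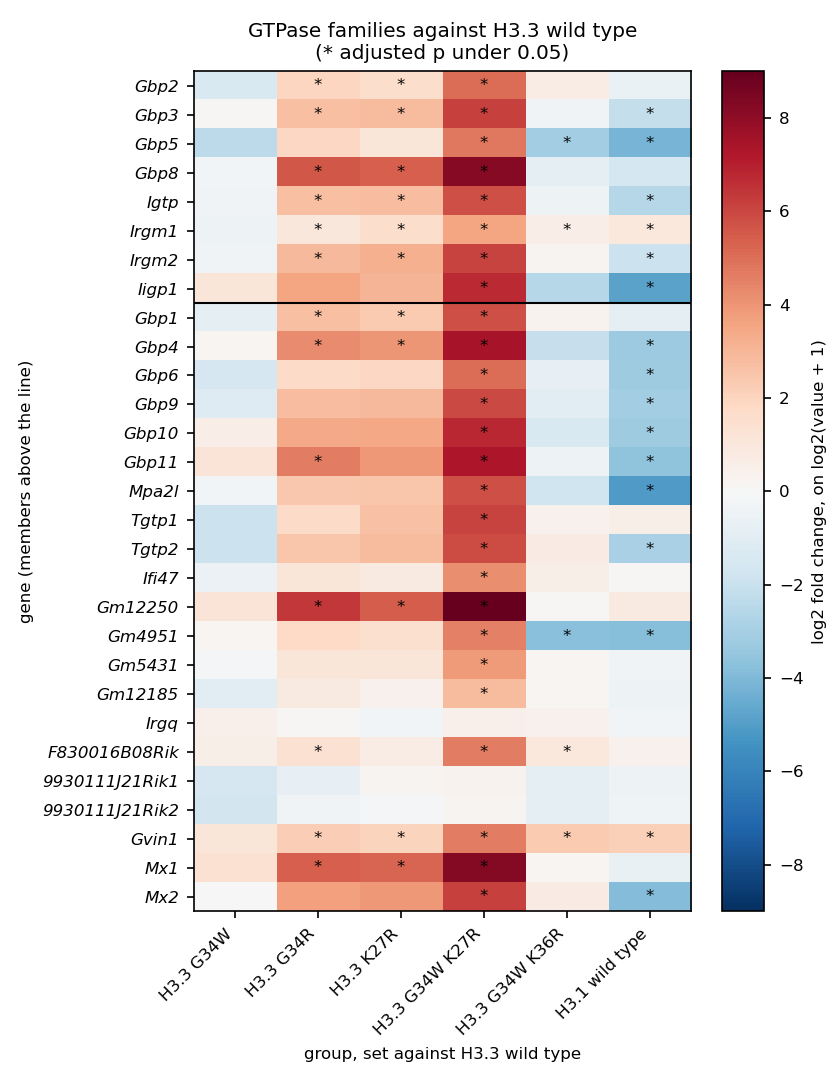
Heat map of log2 fold changes against H3.3 wild type on the log2(value + 1) scale for the 8 members, above the line, and the other tested GBP, IRG, Gvin and Mx genes, below it, with a column for each of 6 groups and a star for an adjusted p under 0.05. The G34W K27R column is starred for every gene but 9930111J21Rik1, 9930111J21Rik2 and Irgq, and the G34W column has no star.

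Upstream of these genes, the interferons themselves were barely detected. Of 21 interferon genes listed, 19 were in the table, 13 were at 0 in all 16 libraries and 0 passed the filter. Ifnb1, the interferon beta gene, had 1.11 and 2.92 in G34W K27R cells, 0 and 2.49 in K27R cells and 0 and 1.76 in G34W K36R cells. It was at 0 in every library of the other 5 groups, G34R and H3.3 wild type among them. The value 2.92 was the highest of the list. No Ifnb1 value was above 3 reads, which is too few to tell the groups apart. Ifng was at 0 throughout. The receptor genes were expressed: Ifngr1, a chain of the interferon gamma receptor, had 2057 and 2022 in G34W K27R cells, against 1927 and 1939.9 in H3.3 wild-type cells (limma adjusted p = 0.823). Ifnar1, a chain of the type I interferon receptor, had 4352 and 4329 in G34W K27R cells, against 3793 and 3639 in H3.3 wild-type cells (limma adjusted p = 0.384). The receptor-bound kinase gene Jak1 had 9226 and 8863 in G34W K27R cells, against 6940.5 and 6929 in H3.3 wild-type cells (limma adjusted p = 0.213).

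Of 10 tested receptor, JAK and STAT genes, 2 rose in G34W K27R cells against H3.3 wild type, where 6.42% of all genes did. Stat2, part of an ISRE-binding complex, rose by 3.55 ± 0.58 (SE; limma adjusted p = 0.00266), and the kinase gene Tyk2 by 0.90 ± 0.25 (SE; limma adjusted p = 0.0362). In G34R and in K27R cells 0 of the 10 were called by limma, where 2.72% and 2.75% of all genes were. At an unadjusted p under 0.05 there were 0 in G34R and 1 in K27R cells, Stat2. The shares of all genes at that unadjusted p were 14.9% in G34R and 13.8% in K27R cells. In G34W K36R cells Il10rb, a chain of the type III interferon receptor, rose by 0.73 on the log2 scale.

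Of 9 tested interferon regulatory factors and partners, 6 rose in G34W K27R cells against H3.3 wild type, where 6.42% of all genes did. Irf1, which switches on GBP genes after interferon gamma, had 6148 and 6098 in G34W K27R cells, against 1060.1 and 1089 in H3.3 wild-type cells (log2 fold change 2.51 ± 0.31, SE; limma adjusted p = 0.000545). It had 1294 and 1266 in G34R cells and 1193 and 1189 in K27R cells, and was called in neither against H3.3 wild type (limma adjusted p = 0.801 and 0.919). Irf9, the DNA-binding part of the ISRE-binding complex that holds Stat2, rose by 2.32 ± 0.36 and Irf7 by 5.27 ± 0.96 (SE; limma adjusted p = 0.00188 and 0.00487). Nlrc5 and Ciita, the activators of MHC class I and class II genes, rose by 4.12 and 3.37 on the log2 scale. Batf2 had 268 and 263 in G34W K27R cells, against 0.968 and 0.969 in H3.3 wild-type cells. Batf2 and Nlrc5 also rose in K27R cells, and Batf2 in G34R cells.

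**Figure D5:**
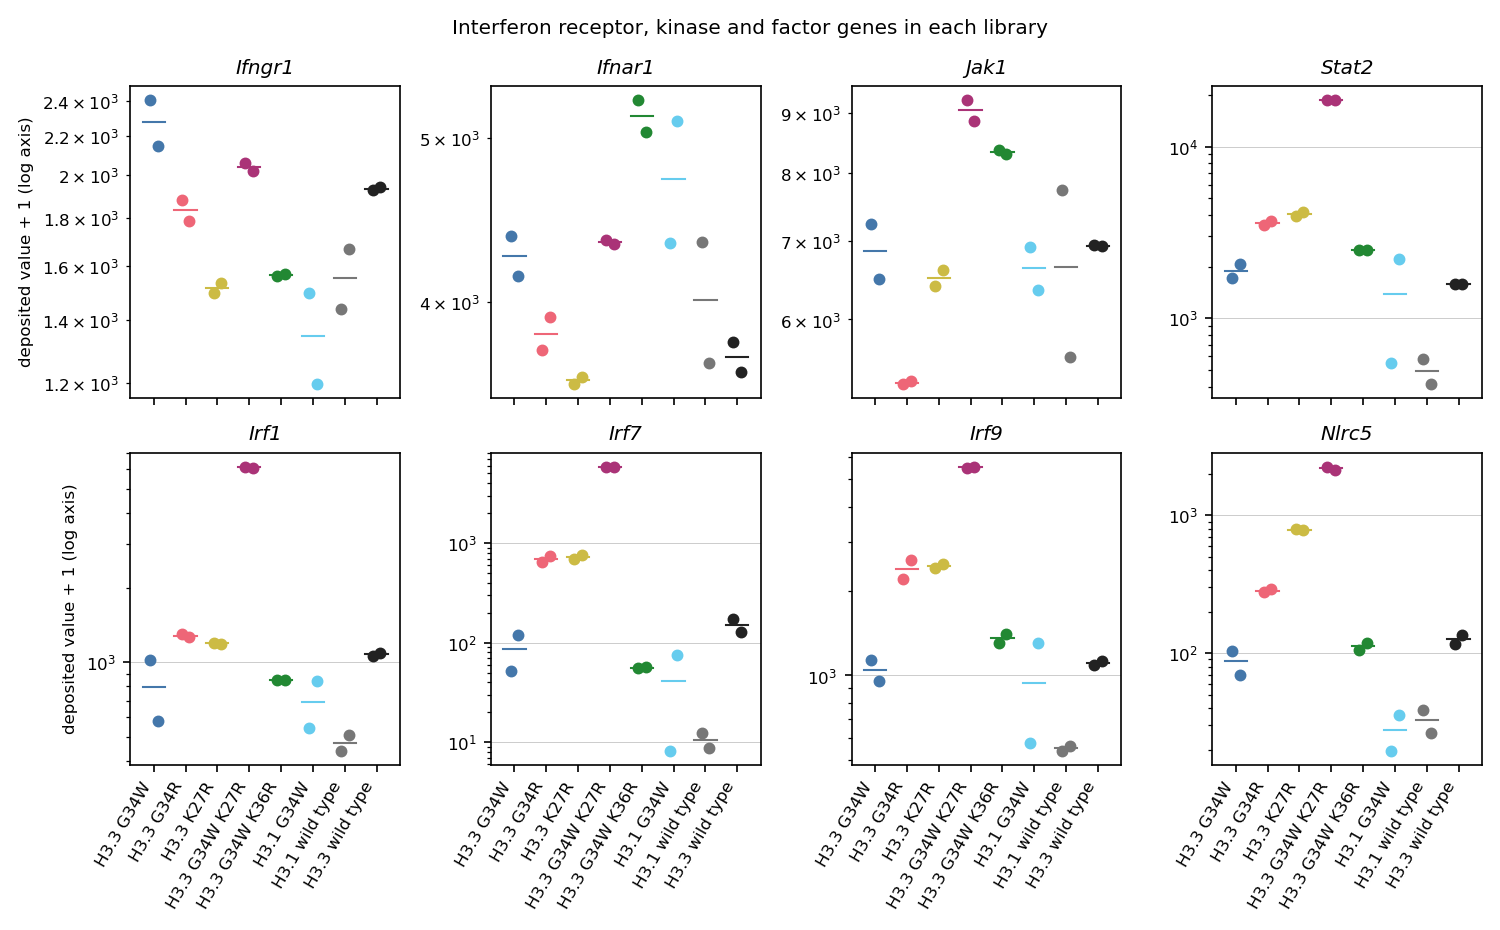
Deposited value plus 1 on a log axis for 3 interferon receptor and kinase genes (Ifngr1, Ifnar1 and Jak1) and 5 transcription factor and activator genes (Stat2, Irf1, Irf7, Irf9 and Nlrc5), with 1 point per library and a line at the group mean; panels have their own ranges. The G34W K27R points stand above all others for these 5 genes, and Ifngr1 values stay between 1195 and 2404.

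Other interferon-induced genes were also higher in the same cells. Of 26 antiviral genes, 25 rose in G34W K27R, 10 in G34R and 14 in K27R cells against H3.3 wild type. The shares of all genes called higher were 6.42%, 1.75% and 1.85% in turn. Rsad2, Cmpk2, Oas1g and Oasl2 changed most in G34W K27R cells. In G34W cells 0 of the 26 were called by limma, where 1.18% of all genes were. Of 16 tested genes best known from interferon gamma, 1 was called higher and 1 lower in G34W cells against H3.3 wild type. In G34W K27R cells 13 of these 16 rose and 2 fell. Of all 12670 genes tested, 813 were called higher and 1002 lower in that comparison. The chemokine gene Cxcl9 had 2137 and 2151 in G34W K27R cells, against 0 in both H3.3 wild-type libraries. Cxcl11 and Cxcl10 rose too, and H2-Aa, an MHC class II gene. Of the 10 genes that attach ATG8 proteins to membranes, which steer IRGs to vacuoles, 0 were called in G34W K27R cells by limma. There 14.3% of all genes were called. Of 6 feedback inhibitors, Usp18 and Socs1 rose there, by 6.84 and 2.12 on the log2 scale, and Ptpn6 fell by 1.52.

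The 10 genes whose 8 group means followed the members' mean scaled profile most closely were Rtp4 (Pearson r = 0.993), H2-T10 (0.991), Ccl5 (0.991), Gm7609 (0.989), Gbp9 (0.989), Dhx58 (0.987), Sp140 (0.987), Cxcl10 (0.987), Gbp1 (0.986) and Ifit3 (0.985). Rtp4 had 4326 and 4272 in G34W K27R cells, 768 and 953 in G34R cells, 1125 and 1098 in K27R cells, and 328 and 324 in H3.3 wild-type cells. The likeness is over 8 points that share their libraries and is a description.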

How the data were processed

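The deposited table holds a signal per gene and library. Per the submitters' processing notes RSEM 1.2.4 and the mm9 build were used, and the authors' table is named as median-normalized; aligner, annotation and strand are not given in the sources used here. Within a library the deposited signal values are expected counts times 1 constant. Only 41.7% to 47.6% of the values above 0 lay within 0.01 of a whole number of reads, so whole-read counts were not recovered and no count model was run; counting intervals for Gbp5 and Gbp8 use expected reads summed over a group and rounded. For the 12670 genes of mean 10 or more, log2(value + 1) was tested with limma 3.58.1 in R 4.3.3 (lmFit, then eBayes with trend and robust, statmod 1.5.0). All 8 groups entered 1 fit, two-sided, with the H3.3 wild-type libraries averaged, 15 samples and 7 residual degrees of freedom. P-values were Benjamini-Hochberg adjusted over all genes, with a threshold of 0.05. Fold changes on this scale understate those of low genes. Intervals cover counting error only, at 95%. Alternatives were the pseudocount, filters, trimmed-mean and quantile scaling, moderation, the counting of close pairs, a replicate block, and the omission of single libraries, where a lone library left in a group is assumed to vary like the others. The fit was also run on simulated data with 1 noise level per gene for all groups. That run cannot show how the fit does where some library pairs are far closer than others. The members and the gene lists were chosen with earlier results of these data known. Genes named are all members, the related GBP and IRG genes, called signalling genes with a few fixed ones, up to 4 called genes of other lists with the largest changes, and the 10 most alike in profile; 1 signalling gene of that rule is not reported here, and the genome build of the promoter table differs from that of the values.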

Additional observations from a re-analysis of the deposited data

Results flagged for a closer look

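For 5 genes the effect of G34W on H3.3 differed by whether K27R was present, by the test of the difference itself (limma, adjusted over all genes). The differences of the log2 fold changes, with K27R minus without it, were 4.77 ± 0.36 for Gbp2, 3.25 ± 0.47 for Gbp3, 6.04 ± 0.89 for Gbp5, 3.27 ± 0.67 for Igtp and 2.47 ± 0.20 for Irgm1 (SE). In each of the 5 genes both G34W K27R libraries lay above both K27R libraries. The G34W libraries lay below the H3.3 wild-type libraries for Gbp2, Gbp5 and Irgm1. Groups of 2 libraries are too small for a check of single outlying libraries.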

How the results depend on the processing

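Depth limits Gbp8 and Gbp5, which had few reads outside H3.3 G34W K27R, G34R and K27R. It also limits Iigp1, for which no counting interval was made. Iigp1 had 5 reads in each H3.1 wild-type library, 1 and 13 in H3.1 G34W and 19 and 36 in G34W K36R. With the 5 close pairs each averaged, the count of the 8 genes called fell to 0 in G34R, in K27R and in G34W K36R against H3.3 wild type, and to 5 in G34W K27R and 1 in H3.1 wild type against H3.3 wild type. It fell to 0 in G34R against G34W, in G34W K27R against K27R, in G34W K36R against G34W and for the interaction of G34W with K27R, with fewer residual degrees of freedom. Same-numbered libraries were not seen to be paired: the replicate differences of 2 groups correlated at -0.265 to 0.0598 over 28 such comparisons. A replicate block with both H3.3 wild-type libraries as samples gave 3 called in G34W (6.33% of all genes) and 4 in G34W K36R (31.5%) against H3.3 wild type. Using both as samples without a block gave 3 (7.55%) and 4 (33.6%). A pseudocount of 5 gave 2 in G34W (1.53%), and quantile normalization 1 in G34W (2.05%) and 4 in G34W K36R (19.2%), against H3.3 wild type. Under the other settings tried, other than leaving out a library, each count stayed within 1.5 times. Leaving out 1 library at a time gave 0 to 1 in G34W, 1 to 7 in G34R, 2 to 7 in K27R, 8 to 8 in G34W K27R, 0 to 3 in G34W K36R and 5 to 6 in H3.1 wild type against H3.3 wild type. It gave 2 to 8 in G34R, 8 to 8 in G34W K27R and 3 to 3 in G34W K36R against G34W, 7 to 8 in G34W K27R against K27R and 0 to 2 in G34W against wild type on H3.1. It gave 4 to 7 for the interaction with K27R, 0 to 3 for that with histone type and 8 to 8 for any difference. Quantile normalization also moved the share of higher calls among all genes called from 64.5% to 54.5% in G34R against H3.3 wild type, from 34.3% to 45.4% for the interaction with K27R and from 44% to 55.6% for that with histone type. Log2 fold changes of uncalled genes that changed sign were 0.041 for Gbp8 in G34W against wild type and 0.030 for Iigp1 in G34W against wild type on H3.1 with a pseudocount of 5. With quantile normalization they were 0.091 for Igtp in G34W K36R against G34W and 0.035 for Irgm1 in G34W against wild type on H3.1. Leaving out 1 library turned 18 more. In G34W against wild type on H3.3 the values then ran from -0.17 to 0.35 for Gbp3, -1.61 to 1.10 for Gbp8, -0.63 to 0.025 for Igtp and -0.72 to 0.15 for Irgm2. In G34W K36R against G34W they ran from -1.93 to 0.78 for Gbp8 and -0.49 to 0.17 for Igtp. In G34W against wild type on H3.1 they ran from -0.45 to 0.35 for Gbp3, -0.49 to 0.91 for Gbp5, 0 to 2.29 for Gbp8, -0.12 to 0.058 for Irgm1 and -1.38 to 1.05 for Iigp1, and for the interaction with histone type from -0.55 to 0.26 for Gbp3. The cause was not tested.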
